A study of Homo sapiens with 12 samples.

Results

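The genes described here are the non-coding genes that GENCODE 29 names LINC followed by 5 digits and that were chosen by their level in the control libraries, a mean of at least 0.5 CPM (a gene's count over the library's total gene count, times 1000000). No knockdown value chose them. The symbol fits 1856 non-coding genes, and 200 of them met the level, out of 60554 gene IDs in the files. They carry 199 symbols, since LINC01481 stands for 2 gene IDs. The cells were HEK293, a human embryonic kidney line, and the labels name its derivative with the SV40 large T antigen, HEK293T, as the line, at passage 10 throughout. They received an siRNA pool aimed at RBM17, at U2SURP or at CHERP, or a non-targeting siRNA as control, which the labels do not call a pool. Each of these 4 groups has 3 libraries, 12 in all, and no time after transfection is given. The series speaks of triplicate RNA samples without saying whether they came from separate cultures, so the p-values measure a spread between libraries that may be technical.

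LINC is the naming authority's root for long intergenic non-protein-coding RNA genes without a better name, so the members are related by name and not by sequence or function. Such RNAs are transcribed by RNA polymerase II, are often spliced and polyadenylated, and tend to be less efficiently spliced and less stable than messenger RNAs. Many stay in the nucleus, where the RNA exosome and its adaptors degrade part of them, and many start from the same region as a protein-coding gene on the other strand. The 3 targets are splicing factors that associate with the U2 snRNP, the particle that pairs with the intron's branch site. The series asks how the cells' transcripts change when each factor is depleted.

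The name intergenic held for part of the members. GENCODE 29 classed 152 of the 200 as lincRNA, 18 as antisense and 16 as processed transcript, and the rest fell mostly among transcribed pseudogenes. On either strand 116 overlapped another annotated gene and 84 did not, and in 53 an exon overlapped an exon on the other strand. The library kit keeps the strand, but the strand setting of the counting is not given in the sources used here, so reads of these 53 and of their partners may be mixed. A start within 1 kb of the start of a protein-coding gene on the opposite strand, called head to head below, was found for 25 members. The members had 1 to 24 exons in their longest annotated transcript (median 4), and 18 had a single exon.

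RefSeq promoter windows (GRCh38.p14, 250 bases before to 50 after a start) were matched to 122 members, and for 79 of these the RefSeq start lay within 100 bases of the GENCODE start. For the others the distance reached 89320 bases, for LINC01238, which was matched through an older symbol to the window of LINC01237. Some matched windows may therefore not be the member's own promoter. The windows below are shown because the results turn on these members and both starts lay within 100 bases. Capitals mark 4 motifs on either strand: the GC box GGGCGG, the CCAAT box, the ETS core CGGAAG, and the TATA box in its form TATAAA. Matches that overlap run together. LINC01126 (chr2:43226961-43227260, plus strand) fell in all 3 knockdowns, and LINC01184 (chr5:128083126-128083425, minus strand) and LINC01547 (chr21:44939864-44940163, minus strand) rose in all 3. These 3 start head to head with a coding gene. LINC00471 (chr2:231514328-231514627, minus strand) and LINC02519 (chr6:169388357-169388656, minus strand) rose in all 3 and have no coding start within 1 kb. LINC01397 (chr1:110082438-110082737, plus strand) moved in opposite directions between knockdowns. LINC02367 (chr12:9367214-9367513, plus strand) fell in RBM17 knockdown, and its call of a rise in CHERP knockdown was lost under 1 alternative.
LINC01126: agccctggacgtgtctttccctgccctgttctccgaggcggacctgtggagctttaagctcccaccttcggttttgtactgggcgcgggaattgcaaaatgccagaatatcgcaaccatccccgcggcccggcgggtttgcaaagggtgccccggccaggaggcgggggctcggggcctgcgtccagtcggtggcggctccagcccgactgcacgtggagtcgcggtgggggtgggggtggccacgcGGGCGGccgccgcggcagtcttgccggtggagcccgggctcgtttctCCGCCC
LINC01184: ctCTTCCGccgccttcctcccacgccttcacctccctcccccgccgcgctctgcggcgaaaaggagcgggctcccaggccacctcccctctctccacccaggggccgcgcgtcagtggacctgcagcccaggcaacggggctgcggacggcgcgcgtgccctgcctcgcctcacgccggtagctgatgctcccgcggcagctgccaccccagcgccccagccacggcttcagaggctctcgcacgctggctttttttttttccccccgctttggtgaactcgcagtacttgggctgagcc
LINC01547: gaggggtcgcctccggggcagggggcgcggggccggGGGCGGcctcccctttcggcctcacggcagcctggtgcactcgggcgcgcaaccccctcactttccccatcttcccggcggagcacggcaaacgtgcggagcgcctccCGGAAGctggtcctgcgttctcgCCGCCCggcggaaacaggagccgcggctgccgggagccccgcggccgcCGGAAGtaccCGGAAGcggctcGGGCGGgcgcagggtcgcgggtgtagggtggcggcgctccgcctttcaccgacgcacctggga
LINC00471: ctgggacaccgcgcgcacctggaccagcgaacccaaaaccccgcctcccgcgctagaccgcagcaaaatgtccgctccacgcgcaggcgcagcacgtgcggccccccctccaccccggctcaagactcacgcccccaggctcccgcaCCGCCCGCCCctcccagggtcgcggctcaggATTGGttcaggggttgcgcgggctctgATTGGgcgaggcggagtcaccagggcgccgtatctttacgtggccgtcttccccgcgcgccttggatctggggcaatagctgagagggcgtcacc
LINC02519: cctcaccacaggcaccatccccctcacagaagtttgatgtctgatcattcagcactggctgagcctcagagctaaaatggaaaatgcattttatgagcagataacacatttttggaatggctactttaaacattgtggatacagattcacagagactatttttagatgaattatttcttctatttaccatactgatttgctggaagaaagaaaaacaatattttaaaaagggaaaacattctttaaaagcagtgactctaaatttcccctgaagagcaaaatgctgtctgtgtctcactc
LINC01397: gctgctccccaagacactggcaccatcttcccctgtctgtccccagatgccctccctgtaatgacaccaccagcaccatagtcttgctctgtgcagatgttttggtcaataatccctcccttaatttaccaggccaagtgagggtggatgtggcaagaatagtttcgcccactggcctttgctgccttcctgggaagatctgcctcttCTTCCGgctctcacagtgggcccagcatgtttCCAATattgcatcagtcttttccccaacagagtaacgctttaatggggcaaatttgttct
LINC02367: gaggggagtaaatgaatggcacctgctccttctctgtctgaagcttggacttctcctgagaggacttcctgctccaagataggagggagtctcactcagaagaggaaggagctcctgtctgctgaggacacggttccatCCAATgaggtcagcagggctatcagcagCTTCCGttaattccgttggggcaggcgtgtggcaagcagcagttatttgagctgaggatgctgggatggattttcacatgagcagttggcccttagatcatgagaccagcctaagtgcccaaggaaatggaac

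The 7 windows differed in composition. LINC01547 held 42 CG pairs, LINC00471 held 33, LINC01126 held 31 and LINC01184 held 29, against a median of 14 over all 35116 RefSeq promoters of this length and 20 over the 122 matched members. LINC02367 held 4, LINC01397 held 3 and LINC02519 held 0. Over all 122 matched windows, those with distant starts included, CCAAT stood in 42.6%, against 34.6% of all RefSeq promoters. The shares were 50.8% and 45.0% for GGGCGG, 23.8% and 19.5% for CGGAAG, and 12.3% and 11.5% for TATAAA. Among members that fell in all 3 knockdowns CCAAT stood in 13 of 28 windows, GGGCGG in 16, CGGAAG in 5 and TATAAA in 5. Among those that rose in all 3 CCAAT stood in 1 of 10, GGGCGG in 5, CGGAAG in 3 and TATAAA in 1. A match is a description of the letters and not a binding site.

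The libraries held 252505520 to 320986785 gene counts each. Each target was lower under its own siRNA, with log2 changes (± SE) of -2.12 ± 0.05 for RBM17, -1.71 ± 0.06 for U2SURP and -1.77 ± 0.05 for CHERP. Of 8 markers of the HEK293 line 7 or 8 reached 1 CPM in every group. Markers of fibroblasts (1 of 8 at 1 CPM) summed to 17.5 to 23.1 CPM in control and 10.5 to 15.01 in the knockdowns, those of keratinised epithelium (3 or 4 of 8) to 12.6 to 13.3 and 7.38 to 10.7, with KRT6A at 0 in all knockdowns and KRT14 at 0 in RBM17 knockdown, and those of blood (2 of 8, HBB at 0 throughout) to 3.89 to 5.00 and 2.40 to 4.22. Mitochondrially encoded genes took 7.88 to 8.70% of counts in control and 3.98 to 5.15% in the knockdowns. The part of any of these in the results below was not tested. Library numbers in the labels run in separate blocks by group, so a preparation order cannot be told apart from the siRNA. In bulk RNA, fewer cells that express a gene and less RNA per cell cannot be told apart.

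The members were low in abundance. Control means ran from 0.504 to 66.3 CPM with a median of 2.07, and 98 of the 200 were under 2 CPM. The 5 highest were LINC00641, LINC02210, LINC01694, LINC00342 and LINC02035, which took 21.6 to 22.1% of the members' summed CPM in a control library, 17.1 to 17.3% in an RBM17 library, 19.8 to 20.03% in a U2SURP library and 19.5 to 19.7% in a CHERP library. LINC00641, the highest, stood at 67.03, 68.8 and 63.1 CPM in the control libraries, 45.3, 44.3 and 45.4 in RBM17 knockdown, 66.4, 67.6 and 63.5 in U2SURP knockdown and 59.5, 56.2 and 55.3 in CHERP knockdown. It was lower in RBM17 knockdown than in every other group, and its U2SURP values overlapped control (log2 difference 0.01 ± 0.05, adjusted p = 0.869). LINC02210, a transcribed pseudogene that reads into the CRHR1 locus, stood at 52.7, 52.8 and 48.9 CPM in control, 32.3, 27.9 and 29.4 in RBM17 knockdown, 38.5, 36.1 and 36.2 in U2SURP knockdown and 42.9, 39.9 and 38.9 in CHERP knockdown, with no overlap between control and any knockdown. LINC01694 was the one of the 5 that fell in none: it stood at 45.2, 42.1 and 42.5 CPM in control and rose in U2SURP knockdown (log2 0.26 ± 0.06, adjusted p = 6.37e-04) and CHERP knockdown (log2 0.30 ± 0.06, adjusted p = 1.06e-04). LINC00342 stood at 42.2, 47.4 and 35.1 CPM in control and 16.9, 17.4 and 18.8 in RBM17 knockdown, and LINC02035, a single-exon gene, at 31.3, 30.3 and 26.4 and 17.4, 15.4 and 15.4. Both fell in all 3 knockdowns, and for both the fall was largest in RBM17 knockdown.

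Summed over the 200 members, the control libraries held 999.5 to 1092 CPM (1058 ± 50.6, SD, n = 3). The sum was 870.4 to 904.6 CPM in RBM17 knockdown (891.7 ± 18.6), 1014 to 1021 in U2SURP knockdown (1016 ± 3.54) and 1006 to 1034 in CHERP knockdown (1023 ± 14.8). The RBM17 libraries lay below all others, while control library 3, the lowest of its group, lay below all U2SURP and CHERP libraries. These sums use raw totals without the TMM scaling of the tests. The TMM factor was 0.976 for control library 3, against 1.032 and 1.044 for control libraries 1 and 2. The place of control library 3 below the U2SURP and CHERP libraries therefore holds for unscaled CPM only. At 0.5 CPM or more, 193 to 195 members were found in a control library, 160 to 167 in an RBM17 library, 177 to 180 in a U2SURP library and 179 to 182 in a CHERP library. The control libraries chose the members, so a higher count there is built into the rule. Taken by each group's own mean, 172 LINC genes reached 0.5 CPM in RBM17 knockdown, 190 in U2SURP knockdown and 195 in CHERP knockdown, of which 8, 11 and 13 were not members.

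**Figure D1:**
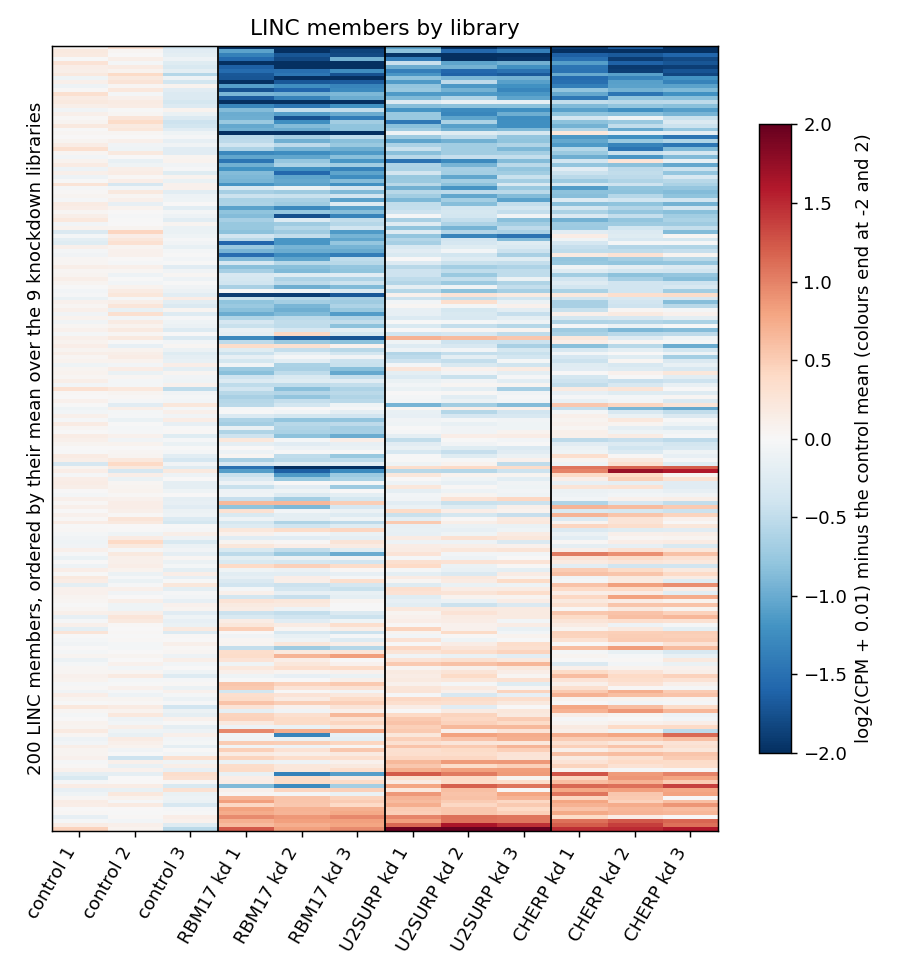
Each row is 1 of the 200 LINC members and each column 1 of the 12 libraries, and the colour gives log2(CPM + 0.01) minus the mean of the 3 control libraries. More rows are blue in the RBM17 knockdown columns, where 104 members fell and 35 rose, than in the U2SURP (69 and 41) and CHERP (76 and 50) columns.

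Against control, members fell more often than they rose in each knockdown, but the rule that chose them used control values. With LINC genes chosen over the 9 knockdown libraries instead (190 genes), the excess of falls shrank. Then 88 fell and 37 rose in RBM17 knockdown, 55 and 45 in U2SURP knockdown and 62 and 56 in CHERP knockdown. In RBM17 knockdown 104 members fell and 35 rose at an adjusted p under 0.05 (edgeR's quasi-likelihood test over 29003 genes, Benjamini-Hochberg), with a median log2 change of -0.32. The background in this comparison was 29.3% of all tested genes called lower and 25.4% higher, and 34.5% and 37.8% of the 17605 genes with at least 0.5 CPM in control, whose median was 0.0089. Against that background 52% of members were lower and 17.5% higher. The 2061 other long non-coding genes with at least 0.5 CPM in control had 58.7% lower, 11.5% higher and a median of -0.41. The 13638 protein-coding genes with at least 0.5 CPM had 28.5% lower, 44.3% higher and a median of 0.09. These sets share that minimum and were not matched for level. The median SE was 0.12 for members, 0.13 for other long non-coding genes and 0.06 for protein-coding genes. The members' values lay nearer to those of the other long non-coding genes than to those of the protein-coding genes. The part of expression level in this was not tested.

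In U2SURP knockdown 69 members fell and 41 rose, with a median of -0.09. All tested genes were called lower in 22.2% and higher in 21.1%, genes at 0.5 CPM in 31% and 29.7%, and the members in 34.5% and 20.5%. Other long non-coding genes had 39.1% lower and 12.8% higher, with a median of -0.20. In CHERP knockdown 76 members fell and 50 rose, with a median of -0.05, against 24.6% and 22.8% of all tested genes, 34.6% and 30% of genes at 0.5 CPM and 38% and 25% of members. Other long non-coding genes had 36.4% lower and 18.1% higher, with a median of -0.13. The members' shares in these 2 knockdowns lay closer to the background than in RBM17 knockdown. Changes of at least 2-fold were mostly falls: 31 against 1 rise in RBM17 knockdown, 15 against 6 in U2SURP knockdown and 17 against 7 in CHERP knockdown. Of the members 15.5%, 7.5% and 8.5% had such falls and 0.5%, 3% and 3.5% such rises. Among all tested genes such falls were 9.51%, 3.24% and 4.67% and such rises 2.22%, 2.2% and 3.42%. Among genes at 0.5 CPM falls were 5.84%, 2.10% and 3.89% and rises 1.41%, 0.64% and 0.99%. Among other long non-coding genes falls were 15.3%, 4.90% and 5.29% and rises 0.87%, 1.07% and 1.89%. In RBM17 knockdown the members' share of such falls was thus near that of other long non-coding genes.

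**Figure D2:**
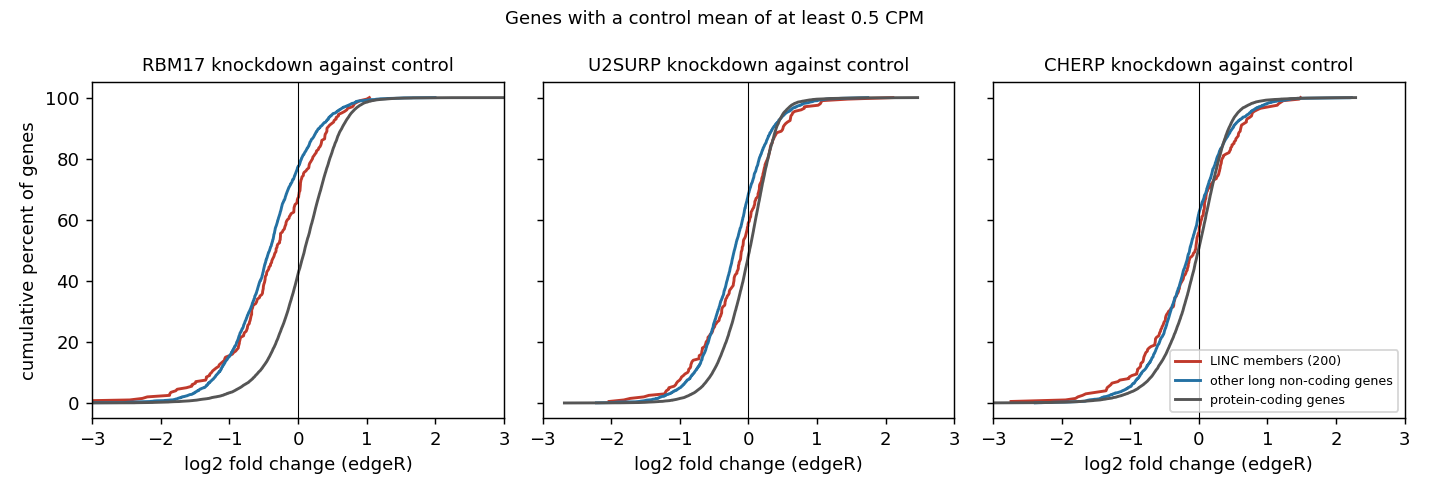
Cumulative percent of genes (y axis) by log2 fold change against control (x axis) in the 3 knockdowns, for the 200 LINC members, 2061 other long non-coding genes and 13638 protein-coding genes, all with a control mean of at least 0.5 CPM. In RBM17 knockdown the members' curve (median -0.32) lies left of the protein-coding curve (0.09), next to the other long non-coding genes (-0.41).

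Because the control libraries chose the members, the counts against control share values with the rule. The contrasts between knockdowns compare no control value. The control libraries still entered the filter, the scaling and the estimate of spread, which all 12 libraries share. Directly compared, 76 members were lower and 29 higher in RBM17 than in U2SURP knockdown (median log2 difference -0.11), where 21.5% of all tested genes were lower and 23% higher, and of genes at 0.5 CPM 25.2% and 34.9%. Between RBM17 and CHERP knockdown 87 were lower and 48 higher (median -0.21), against 25.5% and 26.1% of all tested genes and 27.2% and 39.3% of genes at 0.5 CPM. In these contrasts 38% and 43.5% of members were lower in RBM17 knockdown. The 2061 other long non-coding genes had 38.8% lower and 10.9% higher against U2SURP knockdown (median -0.20). Against CHERP knockdown they had 43.2% lower and 13.1% higher (median -0.24). The members' shares lower were thus near those of other long non-coding genes and not particular to LINC genes. Between U2SURP and CHERP knockdown 43 members were higher and 35 lower in U2SURP knockdown (median -0.0046), against 15% and 12.9% of all tested genes and 22.3% and 16.7% of genes at 0.5 CPM, so no lean to one side appeared there.

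Of the 200 members 182 were called in at least 1 knockdown and 18 in none. The comparisons share the control libraries, so calls in several knockdowns are not independent of each other. In all 3 knockdowns 47 members were lower (23.5%, against 10.8% of all tested genes and 16.1% of genes at 0.5 CPM) and 13 were higher (6.5%, against 10.2% and 15.7%). Not called in any were 9% of members, against 27.5% of all tested genes and 8.69% of genes at 0.5 CPM. These shares were not taken over the other long non-coding genes alone. In RBM17 knockdown alone 23 were called lower, which does not show that they differed from the other knockdowns.

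LINC01126 (chr2:43227210-43228855, GRCh38), a single-exon gene, came first by the rule among members lower in all 3 knockdowns. It stood at 6.44, 5.76 and 4.99 CPM in control, 2.22, 1.73 and 1.62 in RBM17 knockdown, 1.45, 1.38 and 1.30 in U2SURP knockdown and 1.83, 1.77 and 1.90 in CHERP knockdown. The log2 changes were -1.55 ± 0.11, -2.03 ± 0.11 and -1.65 ± 0.11, with adjusted p = 4.05e-11, 3.83e-12 and 2.08e-11. Every control library lay above every knockdown library by more than the spread within groups. The fall was larger in U2SURP than in RBM17 knockdown (RBM17 minus U2SURP 0.48 ± 0.11, adjusted p = 9.59e-04). LINC02593 (chr1:916865-921016), beside SAMD11 on the other strand, stood at 29.1, 28.04 and 23.5 CPM in control, 9.17, 9.45 and 11.3 in RBM17 knockdown, 10.4, 8.96 and 9.61 in U2SURP knockdown and 9.61, 7.29 and 8.07 in CHERP knockdown. Its log2 changes were -1.35 ± 0.10, -1.45 ± 0.10 and -1.69 ± 0.10, so the 3 knockdowns brought it to a similar level, though RBM17 and CHERP differed by 0.35 ± 0.10 (adjusted p = 0.00468).

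LINC01355 (chr1:23281308-23286752), next to HNRNPR, fell in a graded way. It stood at 14.5, 17.5 and 14.2 CPM in control, 8.78, 8.12 and 7.94 in U2SURP knockdown, 5.27, 6.15 and 6.69 in CHERP knockdown and 4.70, 3.57 and 3.86 in RBM17 knockdown. No 2 groups overlapped, and each contrast between knockdowns passed the test (adjusted p = 1.35e-08 for RBM17 against U2SURP, 1.09e-04 for RBM17 against CHERP and 3.71e-04 for U2SURP against CHERP). LINC00893 stood at 4.85, 5.00 and 3.72 CPM in control and changed by -1.26 ± 0.10, -0.82 ± 0.10 and -0.85 ± 0.10 in RBM17, U2SURP and CHERP knockdown. LINC00173, at 5.02, 4.81 and 4.27 CPM in control, changed by -0.96 ± 0.11, -0.98 ± 0.11 and -0.87 ± 0.11. Its 3 falls were of like size: the differences between knockdowns were 0.02 ± 0.11, -0.09 ± 0.11 and -0.11 ± 0.11, none past the threshold.

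The members higher in all 3 included LINC00467 (chr1:211382803-211435333), whose transcript is reported to encode a small mitochondrial protein. It stood at 7.73, 7.56 and 8.42 CPM in control, 12.9, 13.9 and 14.00 in RBM17 knockdown, 13.9, 16.7 and 16.6 in U2SURP knockdown and 16.9, 18.7 and 17.8 in CHERP knockdown. All knockdown libraries lay above all control libraries, and the log2 changes were 0.86 ± 0.08, 1.02 ± 0.08 and 1.16 ± 0.08 (adjusted p = 4.57e-09, 1.42e-09 and 6.01e-11). The rise was larger in CHERP than in RBM17 knockdown (RBM17 minus CHERP -0.30 ± 0.08, adjusted p = 0.00312). LINC02519 was near the threshold of the rule in control, at 0.748, 0.574 and 0.372 CPM, and reached 1.28, 0.966 and 1.05 in RBM17 knockdown, 2.13, 2.47 and 2.56 in U2SURP knockdown and 1.53, 1.55 and 1.67 in CHERP knockdown. It had the largest rise of any member that met the rule for named genes in each knockdown (2.05, 4.30 and 2.79-fold), and its window above holds none of the 4 motifs.

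LINC00471 rose from 1.45, 1.39 and 1.09 CPM in control to 2.02, 2.16 and 2.25 in RBM17 knockdown, 2.89, 4.03 and 3.58 in U2SURP knockdown and 3.02, 3.41 and 2.80 in CHERP knockdown. The groups did not overlap with control, and RBM17 knockdown lay below both others (RBM17 minus U2SURP -0.65 ± 0.12, RBM17 minus CHERP -0.44 ± 0.12, adjusted p = 1.07e-04 and 0.00407). LINC01184 had the opposite order: it stood at 14.7, 14.7 and 14.5 CPM in control, 25.6, 23.7 and 24.01 in RBM17 knockdown, 20.8, 21.3 and 19.3 in U2SURP knockdown and 21.7, 23.3 and 22.3 in CHERP knockdown. RBM17 knockdown was the highest group (RBM17 minus CHERP 0.21 ± 0.06, adjusted p = 0.00326). LINC01547 stood at 8.22, 8.05 and 8.04 CPM in control and 13.6, 12.99 and 13.8, 11.3, 11.8 and 11.3 and 13.7, 12.97 and 12.8 in RBM17, U2SURP and CHERP knockdown, with narrow groups that did not overlap with control.

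**Figure D3:**
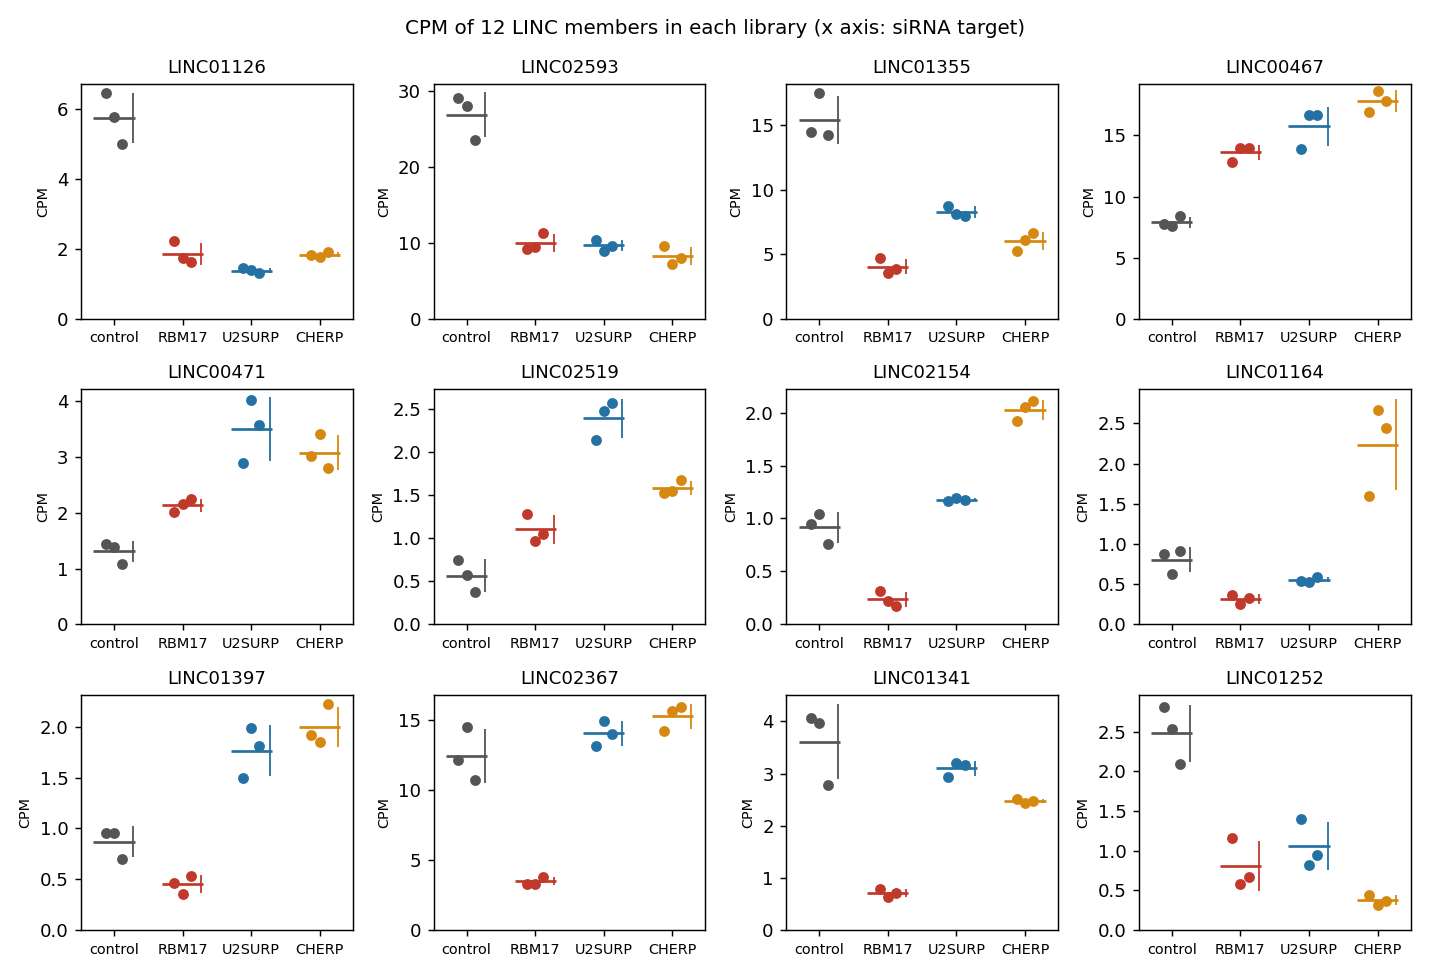
CPM (y axis, from 0) of 12 LINC members in the 3 libraries of each siRNA group (points), with the group mean (horizontal line) and SD (vertical line). LINC01126 fell from 4.99 to 6.44 CPM in control to at most 2.22 in any knockdown library, LINC00467 rose from at most 8.42 to at least 12.9, and LINC01164 fell in RBM17 knockdown and rose in CHERP knockdown.

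The largest falls in RBM17 knockdown were of members at low to middle levels. LINC00659 had the largest, from 0.844, 0.991 and 0.642 CPM in control to 0.114, 0.0253 and 0.0446 (log2 -3.64 ± 0.40, adjusted p = 3.46e-07), and it also fell in U2SURP and CHERP knockdown (-1.72 ± 0.34 and -1.94 ± 0.35). It is antisense by annotation and rests on few reads, 7 in the RBM17 library where it was lowest. LINC00304 fell from 2.01, 1.62 and 1.39 to 0.229, 0.261 and 0.377 CPM, and by less in U2SURP and CHERP knockdown (RBM17 minus U2SURP -1.65 ± 0.21, adjusted p = 9.64e-07). LINC01341, next to SCCPDH, fell from 4.07, 3.97 and 2.78 to 0.78, 0.622 and 0.717 CPM, a log2 change of -2.27 ± 0.12 (adjusted p = 8.05e-13). In U2SURP knockdown it stood at 2.94, 3.19 and 3.16 CPM, within the control range, and RBM17 lay below U2SURP knockdown by -2.08 ± 0.12 (adjusted p = 4.57e-12).

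LINC01166 differed in the same way. It stood at 1.89, 1.89 and 1.73 CPM in control, 0.421, 0.38 and 0.336 in RBM17 knockdown, 1.71, 1.54 and 1.44 in U2SURP knockdown and 2.15, 1.63 and 1.59 in CHERP knockdown. RBM17 knockdown lay below the other knockdowns by -1.99 ± 0.14 and -2.15 ± 0.14 (adjusted p = 7.28e-11 and 7.11e-12). LINC01402, on chromosome X, fell from 0.937, 0.958 and 0.693 CPM to 0.268, 0.199 and 0.202 in RBM17 knockdown and to 0.303, 0.219 and 0.225 in CHERP knockdown, levels that did not differ past the threshold (-0.07 ± 0.20, adjusted p = 0.794).

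Among rises in RBM17 knockdown, LINC01801 went from 1.22, 1.40 and 1.51 CPM to 2.64, 2.50 and 2.69, and to 2.72, 2.95 and 2.88 in U2SURP knockdown. In CHERP knockdown it stood at 1.80, 1.51 and 1.37 CPM, overlapping control, and below U2SURP knockdown (U2SURP minus CHERP 0.90 ± 0.11, adjusted p = 2.10e-06). LINC01033 rose from 3.39, 2.82 and 2.77 to 5.81, 4.99 and 5.11 CPM in RBM17 knockdown and lay above CHERP knockdown there (RBM17 minus CHERP 1.06 ± 0.13, adjusted p = 3.67e-07). LINC01605 was also higher in RBM17 knockdown than in both others, at 4.81, 5.94 and 6.63 CPM against 3.55, 3.39 and 3.21 and 3.86, 3.67 and 3.37, while U2SURP and CHERP knockdown overlapped control (3.84, 3.86 and 3.45).

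Beside LINC01126, the largest falls in U2SURP or CHERP knockdown were of LINC01252, LINC01176, LINC00659, LINC02593, LINC00926 and LINC01402. LINC01252 (chr12:11548030-11590369) stood at 2.81, 2.54 and 2.09 CPM in control, 1.16, 0.575 and 0.672 in RBM17 knockdown, 1.39, 0.819 and 0.947 in U2SURP knockdown and 0.437, 0.312 and 0.369 in CHERP knockdown. It fell in all 3, and CHERP knockdown was lowest (U2SURP minus CHERP 1.52 ± 0.23, adjusted p = 8.66e-05), the largest difference in that direction between these knockdowns among named members. LINC01176 fell from 1.15, 1.27 and 1.08 CPM to 0.439, 0.249 and 0.295 in U2SURP knockdown and 0.405, 0.305 and 0.326 in CHERP knockdown, with no difference past the threshold between them (-0.05 ± 0.22). LINC00926 fell from 1.01, 1.15 and 0.586 CPM to 0.389, 0.28 and 0.267 in U2SURP knockdown, and control library 3 lay closest to the knockdowns.

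The 3 other members named for a difference between U2SURP and CHERP knockdown lay under 1 CPM. LINC00324 stood at 0.299, 0.355 and 0.312 CPM in U2SURP knockdown and 0.846, 0.784 and 0.695 in CHERP knockdown (U2SURP minus CHERP -1.23 ± 0.18, adjusted p = 1.74e-05), with control between them at 0.575, 0.497 and 0.685. LINC01134, which starts 79 bases from C1orf174, fell in U2SURP knockdown from 0.865, 0.98 and 0.84 to 0.515, 0.352 and 0.316 CPM and stood at 0.995, 0.757 and 0.917 in CHERP knockdown, overlapping control. LINC00404, near SOX1, went the other way: it stood at 0.427, 0.312 and 0.29 CPM in CHERP knockdown and 0.615, 0.648 and 0.642 in U2SURP knockdown, with control at 0.562, 0.653 and 0.586 and RBM17 knockdown at 0.581, 0.604 and 0.586. Its fall was called in CHERP knockdown (adjusted p = 3.29e-04).

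In 20 members, 10% of the 200, a fall was called in 1 knockdown and a rise in another, against 7.74% of all tested genes and 11.5% of genes at 0.5 CPM. The commonest form, in 7, was lower in RBM17 knockdown and higher in the other 2, and in 5 the fall in RBM17 knockdown met a rise in CHERP knockdown alone. LINC02154 (chrX:13266048-13303452), on chromosome X, stood at 0.948, 1.05 and 0.756 CPM in control, 0.317, 0.217 and 0.175 in RBM17 knockdown, 1.17, 1.20 and 1.17 in U2SURP knockdown and 1.92, 2.05 and 2.11 in CHERP knockdown. No 2 groups overlapped, and RBM17 lay below CHERP knockdown by -3.02 ± 0.17 (adjusted p = 4.03e-13), the largest difference between knockdowns among the members named. LINC01164 stood at 0.875, 0.632 and 0.911 CPM in control, 0.366, 0.25 and 0.326 in RBM17 knockdown, 0.54, 0.533 and 0.593 in U2SURP knockdown and 1.59, 2.66 and 2.44 in CHERP knockdown. It was lower in U2SURP than in CHERP knockdown by -1.98 ± 0.18 (adjusted p = 2.25e-08), and CHERP knockdown library 1 was the lowest of its group.

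LINC01397, annotated as antisense, stood at 0.958, 0.958 and 0.693 CPM in control, 0.46, 0.355 and 0.535 in RBM17 knockdown, 1.49, 1.98 and 1.81 in U2SURP knockdown and 1.91, 1.85 and 2.22 in CHERP knockdown. RBM17 knockdown lay below the others by -1.92 ± 0.16 and -2.06 ± 0.16 (adjusted p = 1.04e-09 and 1.37e-10), and the others did not differ past the threshold. LINC02367 (chr12:9367464-9397617), near PZP, stood at a higher level: 12.1, 14.5 and 10.7 CPM in control and 3.30, 3.29 and 3.78 in RBM17 knockdown (log2 -1.76 ± 0.09, adjusted p = 3.52e-13). In U2SURP knockdown it stood at 13.1, 14.9 and 14.00 CPM and in CHERP knockdown at 14.2, 15.6 and 15.9, values that overlapped control, and the call of a rise in CHERP knockdown was lost without CHERP knockdown library 3 (adjusted p = 0.072). LINC02495, a transcribed pseudogene, had the reverse pattern, at 1.59, 1.71 and 1.38 CPM in control, 2.45, 2.46 and 2.18 in RBM17 knockdown, 1.33, 1.14 and 1.16 in U2SURP knockdown and 1.02, 1.23 and 1.10 in CHERP knockdown.

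LINC01588, with 12 exons, stood at 2.24, 2.60 and 2.00 CPM in control, 1.57, 1.35 and 1.13 in RBM17 knockdown and 4.66, 4.28 and 3.42 in CHERP knockdown (RBM17 minus CHERP -1.53 ± 0.13, adjusted p = 7.27e-10). LINC02086, in the HOXB region, stood at 2.14, 2.09 and 2.19 CPM in control, 1.53, 1.30 and 1.43 in RBM17 knockdown and 3.27, 3.81 and 3.34 in CHERP knockdown, with U2SURP knockdown between control and CHERP knockdown at 2.85, 2.54 and 2.67. LINC01422 rose in U2SURP knockdown (2.55, 2.45 and 2.31 CPM) and fell in RBM17 knockdown (0.64, 0.496 and 0.47) from 1.69, 1.81 and 1.29 in control. LINC00665 was the most abundant of the 20, at 29.7, 29.02 and 28.7 CPM in control, 34.1, 37.4 and 39.1 in RBM17 knockdown and 23.9, 24.6 and 24.98 in CHERP knockdown.

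Of the 20, 7 kept all their calls against control under every alternative run, namely LINC00665, LINC00899, LINC01397, LINC01422, LINC01588, LINC01619 and LINC02086. In 4 others (LINC01012, LINC01164, LINC02154 and LINC02495) and in LINC00174 a call was lost under some alternative while an opposite pair remained. In the other 8 the opposite calls did not both remain: LINC00461, LINC00623, LINC00624, LINC00869, LINC01232, LINC01572, LINC01979 and LINC02367. In LINC01979 the call of a fall in RBM17 knockdown was lost under 4 alternatives. One was -0.29 (adjusted p = 0.347) when RBM17 knockdown library 2 and control library 3 were left out together. In LINC02154 the call of a rise in U2SURP knockdown was lost under 7, among them 0.29 (adjusted p = 0.147) without control library 3.

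For the 25 members that start head to head with a coding gene, the calls of member and partner were set side by side. In RBM17 knockdown 13 members fell and 7 rose (medians of members -0.40, of partners 0.22), while 4 partners fell and 15 rose. In 8 pairs the member fell and the partner rose, in 1 both fell and in 4 both rose. In U2SURP knockdown 10 members fell and 6 rose and 3 partners fell and 12 rose, with 5 pairs of a falling member and a rising partner, 1 in which both fell and 3 in which both rose. In CHERP knockdown 11 members fell and 8 rose, 7 partners fell and 7 rose, and the pairs numbered 2, 4 and 2. Pairs of a rising member and a falling partner numbered 1, 2 and 3 in RBM17, U2SURP and CHERP knockdown. The pair counts were not compared with those that the separate counts of members and partners would give. Across the 25 pairs Spearman's rho between member and partner log2 changes was 0.15, 0.09 and 0.18, a description over genes of the same libraries. Coding genes at this level were called higher in 44.3%, 33% and 32.4%, so rising partners in RBM17 knockdown are to be read beside that share.

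LINC01126 starts 601 bases from ZFP36L2, which encodes an RNA-binding protein that promotes decay of messenger RNAs with AU-rich elements. ZFP36L2 stood at 50.3, 49.6 and 50.4 CPM in control, 52.4, 48.7 and 48.4 in RBM17 knockdown, 59.03, 61.6 and 54.5 in U2SURP knockdown and 56.6, 54.7 and 55.9 in CHERP knockdown, and it rose in U2SURP knockdown by 0.24 ± 0.05 (log2, adjusted p = 5.74e-04) and in CHERP knockdown by 0.15 ± 0.05 (adjusted p = 0.0233). LINC01184 starts 594 bases from SLC12A2, the gene of a sodium, potassium and chloride cotransporter. SLC12A2 fell in U2SURP and CHERP knockdown (-0.42 ± 0.05 and -0.40 ± 0.05), where LINC01184 rose, and changed by -0.01 ± 0.05 in RBM17 knockdown (adjusted p = 0.933). LINC00893 starts 604 bases from CXorf40A, which stood at 22.99, 22.1 and 22.8 CPM in control and 49.00, 49.1 and 63.1 in RBM17 knockdown. That pair moved apart most in RBM17 knockdown, with log2 changes of -1.26 ± 0.10 for LINC00893 and 1.33 ± 0.08 for CXorf40A.

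LINC01547 and FAM207A, 97 bases apart, were a pair that rose together. FAM207A stood at 18.1, 17.6 and 18.6 CPM in control, 27.3, 30.1 and 29.8 in RBM17 knockdown, 21.5, 23.4 and 22.2 in U2SURP knockdown and 23.2, 23.8 and 23.3 in CHERP knockdown, and changed by 0.76 ± 0.06, 0.32 ± 0.06 and 0.36 ± 0.06. LINC01547 changed by 0.81 ± 0.06, 0.52 ± 0.06 and 0.69 ± 0.06. LINC02495 and JAKMIP1, 142 bases apart, also rose together in RBM17 knockdown, and both fell in CHERP knockdown. In U2SURP knockdown LINC02495 fell (-0.34 ± 0.12) and JAKMIP1 rose (0.50 ± 0.07).

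**Figure D4:**
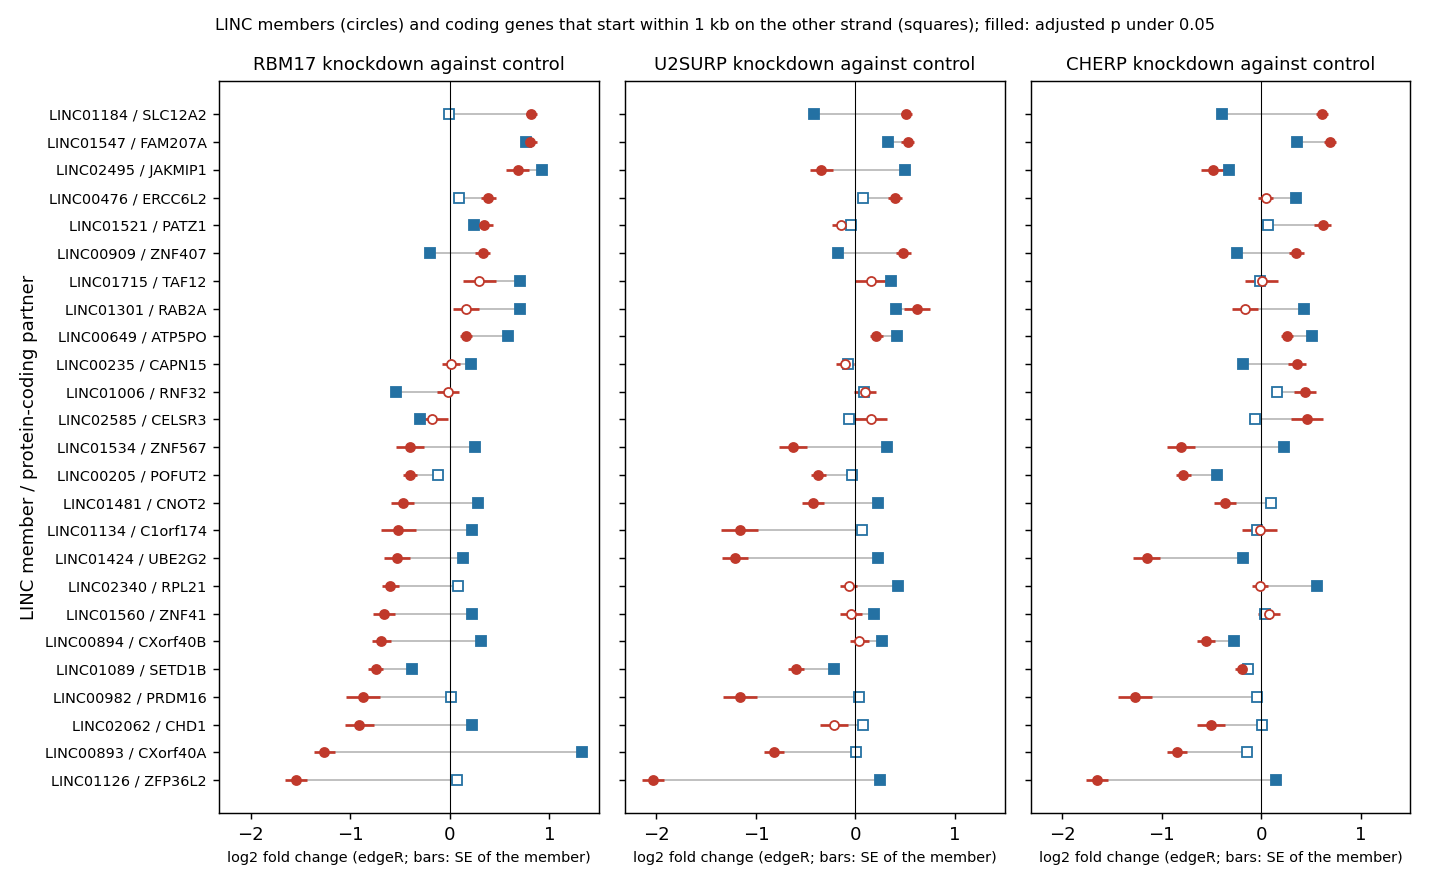
Log2 fold change against control (x axis) of the 25 head-to-head LINC members (circles, with SE) and their protein-coding partners (squares) in each knockdown, filled where the adjusted p was under 0.05. LINC01126 lies far left of ZFP36L2 in each panel, while LINC01547 and FAM207A both lie right of 0.

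By position, 143 members overlapped no coding gene of GENCODE 29, did not start head to head with one and held no small RNA gene on their strand. They may still lie close to a coding gene. In RBM17 knockdown 77 of these 143 fell and 24 rose (median -0.35). Of 38 that overlap a coding gene 17 fell and 7 rose (median -0.18), and of 16 head to head and not overlapping 9 fell and 3 rose (median -0.40). In the same order the medians were -0.09, -0.01 and -0.18 in U2SURP knockdown and -0.13, 0.08 and -0.09 in CHERP knockdown. Of the 38, 13 fell and 16 rose in CHERP knockdown. In RBM17 knockdown the 84 members that overlap no other gene had a median of -0.40 (47 lower, 12 higher), and the 116 others -0.26 (57 lower, 23 higher). The 53 with an exon over an exon of the other strand had medians of -0.19, 0.02 and 0.03 in RBM17, U2SURP and CHERP knockdown, and the 147 without one -0.37, -0.11 and -0.10. The part of reads shared across strands in these values was not tested. Single-exon members, 18 in number, had a median of -0.32 in RBM17 knockdown (8 lower, 2 higher), the same to 2 decimals as the 182 spliced ones. In U2SURP knockdown 6 of the 18 fell and 0 rose, and of the 182 spliced 63 fell and 41 rose.

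By control level, in RBM17 knockdown 57 of the 98 members under 2 CPM fell and 10 rose (median -0.46), of the 74 at 2 to 10 CPM 35 fell and 17 rose (-0.24), and of the 28 at 10 CPM or more 12 fell and 8 rose (-0.12). The classes were cut on control values, which the rule also used and which enter the fold change. The 401 tested LINC genes under 0.5 CPM had 81 lower (20.2%) and 19 higher (4.74%) in RBM17 knockdown, with a median of -0.37, near the 21.2% lower, 6.33% higher and median of -0.37 of all 11398 tested genes under 0.5 CPM. In direct contrast with U2SURP knockdown these 401 had 72 lower (17.96%) and 18 higher (4.49%), where the 11398 had 15.8% and 4.6%. With CHERP knockdown they had 92 lower (22.9%) and 27 higher (6.73%), where the 11398 had 22.9% and 5.74%. Below 0.5 CPM the shares of LINC genes were thus near those of all genes at that level. Spearman's rho over the 200 members was -0.10, -0.25 and -0.15 between transcript GC content and the log2 change in RBM17, U2SURP and CHERP knockdown, and 0.14, 0.14 and 0.09 for the number of exons. These are descriptions over genes measured in the same libraries.

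At the threshold of the rule, LINC01431, LINC01116 and LINC01277 lay just inside with control means of 0.504, 0.505 and 0.514 CPM, and LINC00562, LINC02044 and LINC01237 just outside with 0.489, 0.481 and 0.468. Their log2 changes in RBM17 knockdown were -0.13, 0.41 and -0.74 inside and 0.31, -0.52 and -0.06 outside.

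A few members hold genes of small RNAs. LINC00461, which holds MIR9-2, a microRNA gene active in the developing brain, stood at 2.19, 2.07 and 2.32 CPM in control, 1.90, 1.63 and 1.78 in U2SURP knockdown and 2.74, 3.22 and 3.26 in CHERP knockdown. Its rise in CHERP knockdown was called (0.48 ± 0.11, adjusted p = 6.65e-04). The call of its fall in U2SURP knockdown was lost under 8 alternatives, among them without U2SURP knockdown library 2 or control library 3 (adjusted p = 0.151 in each). LINC00472, which holds MIR30C2 and MIR30A, fell in all 3, from 1.27, 1.40 and 1.43 CPM in control to 0.63, 0.575 and 0.538, 0.784, 0.608 and 0.586 and 0.521, 0.647 and 0.646 in RBM17, U2SURP and CHERP knockdown. LINC00888, which holds SNORA63D, rose in RBM17 and U2SURP knockdown (0.46 ± 0.08 and 0.50 ± 0.08). LINC02001, which holds SNORD7, fell in U2SURP and CHERP knockdown (-0.53 ± 0.08 and -0.77 ± 0.08). LINC01138, which holds MIR5087, fell in CHERP knockdown (-0.44 ± 0.09). LINC00472, LINC00888, LINC02001 and LINC01138 were named for what they hold after their values were seen.

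Genes whose products decay or end nuclear non-coding RNA were listed apart. Of 25 genes of the nuclear exosome, its adaptors and the cap-binding complex, 15 rose and 3 fell in RBM17 knockdown (median 0.17), 9 rose and 5 fell in U2SURP knockdown (0.02) and 11 rose and 4 fell in CHERP knockdown (0.06). MTREX, the helicase that feeds RNA to the exosome, rose in all 3 (0.81 ± 0.07, 0.47 ± 0.07 and 0.58 ± 0.07), and ZFC3H1, a subunit of the adaptor for polyadenylated nuclear RNA, fell in all 3 (-0.77 ± 0.06, -0.46 ± 0.06 and -0.50 ± 0.06). PABPN1, the nuclear poly(A)-binding protein, fell in all 3 as well (-0.20 ± 0.06, -0.49 ± 0.06 and -0.54 ± 0.06). Of 14 subunits of Integrator, which cleaves and ends short and non-coding transcripts, 9 rose and 2 fell in RBM17 knockdown (median 0.43), 7 rose and 3 fell in U2SURP knockdown (0.14) and 8 rose and 2 fell in CHERP knockdown (0.20). INTS4 rose in all 3 (0.52 ± 0.06, 0.52 ± 0.06 and 0.45 ± 0.06) and INTS1 fell in all 3 (-0.33 ± 0.05, -0.31 ± 0.05 and -0.80 ± 0.05). Of all protein-coding genes at 0.5 CPM, 44.3% were called higher and 28.5% lower in RBM17 knockdown, 33.04% and 30.3% in U2SURP knockdown and 32.4% and 34.9% in CHERP knockdown. The 9 of 25 decay genes higher in U2SURP knockdown are near that share.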

How the data were processed

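Each library came as a table of raw counts of reads per Ensembl gene, deposited by the authors. Libraries were made with a stranded poly(A) mRNA kit, per the labels' protocols, so RNA without a poly(A) tail is largely missed. The submitters' processing notes name HISAT2 2.0.5, SAMtools, HTSeq and GRCh38 and no step for them; which annotation release and which strand setting served for counting is not given in the sources used here. GENCODE 29 named 56996 of the 60554 gene IDs, and 3558 had no name in it.

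CPM is a count over the library's total, times 1000000, with no further scaling. For the tests, filterByExpr kept 29003 genes, among them all 200 members, which their control level carries over the filter. Scaling was by TMM (factors 0.940 to 1.044), and one robust quasi-likelihood model in edgeR 4.0.16 under R 4.3.3 took the 12 libraries together. Calls were made at a Benjamini-Hochberg adjusted p below 0.05 over the 29003 genes, and SE is the size of the log2 fold change over the square root of F. The common biological coefficient of variation was 0.0866, and the members' counts ran from 7 to 21688 in a library. The script was tested on simulated counts. Groups came from the labels. Within groups, libraries differed by more than sampling noise (chi-square per gene 11.7 to 51.7 over 12 pairs). Separate preparations of the same RNA could differ in this way too, so the values do not show separate cultures. Each library counted as 1 replicate.

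Members and lists were chosen with earlier results of these data known. Members named are the 5 highest in control, the largest changes per comparison among called members with no overlap between groups (6 per direction against control, 3 between knockdowns), up to 5 per direction called alike in all 3 knockdowns, those called in opposite directions, those at the threshold, a member known for a small protein, and up to 2 called decay genes per direction by smallest p. Any others are said to be chosen later. MPP6 was left out of the decay list because GENCODE 29 gives that symbol to another gene. Alternatives were DESeq2 1.42.0 size factors and its Wald test, TMM factors from protein-coding genes, testing with no filter, models of only the 2 groups compared, a minimum change of 2-fold, other rules of membership and leaving out each library. Leaving out RBM17 knockdown library 2 together with control library 3 was chosen after seeing the data. Figures were drawn with matplotlib 3.10.9.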

Additional observations from a re-analysis of the deposited data

How the results depend on the processing

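The direction of every called change of the 51 named members was the same under all alternatives run for them: of 1512 values over 126 results, 1439 stayed on the same side of the threshold and 73 fell short of it, all in 16 results of 13 members called in opposite directions. Counts of members moved by less than 1.5 times under each scaling, test, filter and single left-out library. Leaving out single libraries, members higher and lower numbered 31 to 37 and 94 to 101 in RBM17 knockdown, 35 to 41 and 59 to 67 in U2SURP knockdown and 45 to 50 and 67 to 72 in CHERP knockdown. Among the 84 members that overlap no other gene, the counts higher and lower were 12 and 47, 17 and 36, and 21 and 35 against control, and 13 and 33 (RBM17 against U2SURP), 18 and 39 (RBM17 against CHERP) and 16 and 15 (U2SURP against CHERP), fewer because fewer genes were counted; their medians against control were -0.40, -0.13 and -0.16. With a change of at least 2-fold they were 1 and 31, 6 and 15, and 7 and 17, and between knockdowns 1 and 11, 4 and 16, and 1 and 4. Medians moved as follows, and where no construction shows it the cause was not tested. In RBM17 knockdown the median was -0.39 with protein-coding TMM factors, -0.26 with members chosen over all 12 libraries (196 members) and -0.22 over the 9 knockdown libraries (190). In U2SURP knockdown it was -0.0643 with DESeq2 size factors and -0.0651 with its Wald test, -0.0811 in a fit of 2 groups, -0.0419 and -0.0205 with those memberships, and -0.115 to -0.0737 leaving out single libraries. In CHERP knockdown it turned to 0.0055 with members chosen over the knockdown libraries, and was -0.0175 with members chosen over all 12, -0.025 with DESeq2 size factors and with its Wald test, -0.09 without CHERP knockdown library 2 and -0.08 without control library 3. RBM17 against U2SURP gave -0.17 with protein-coding TMM factors. RBM17 against CHERP gave -0.18 with DESeq2 size factors and with its Wald test, -0.29 with protein-coding TMM factors, -0.10 with members at 1 CPM or more (144) and -0.22 to -0.14 leaving out single libraries, the smallest without CHERP knockdown library 3. U2SURP against CHERP, near 0 throughout, was 4.929e-05 and 0.000142 with DESeq2 size factors and Wald test, -0.0248 with protein-coding TMM factors, 0.0332 at 1 CPM or more, 0.0018 to 0.033 leaving out single libraries of either group and -0.00476 without RBM17 knockdown library 2 and control library 3. No paired analysis was possible because the labels number no replicates across groups. Depth limits the members of few reads, such as LINC00659.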
